A study of Mus musculus with 2 samples.

Results

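The IgLON genes Lsamp, Negr1, Opcml, Ntm and Iglon5 are 5 of the 30223 genes in a single-cell transcript table of mouse hippocampus, and were taken by symbol. The table holds 7094 cells of a wild-type library and 8836 cells of a library from mice homozygous for the knock-in allele Pigv341E, both of strain C57Bl.6/J. Each library pools the cells of 8 hippocampi from 4 mice, dissociated mechanically in the cold, and both went through 10x Genomics droplets and were read on the same sequencing lane. There is 1 library per genotype, so differences between the genotypes have no replicate check, no test was made, and genotype and library cannot be told apart. Age is not given in the labels, and the Pigv341E allele is the whole difference that they state between the groups.

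IgLON proteins are small adhesion molecules of the immunoglobulin superfamily that lack a transmembrane segment and sit in the outer membrane leaflet on a glycosylphosphatidylinositol (GPI) anchor. They bind each other, as like or unlike pairs, across and along membranes, and are known for roles in neurite outgrowth and in the formation of synapses. Lsamp encodes the limbic system-associated membrane protein, Negr1 encodes neuronal growth regulator (also called kilon), Opcml encodes opioid-binding cell adhesion molecule, Ntm encodes neurotrimin, and Iglon5 encodes the member known as a target of autoantibodies in a sleep and movement disorder. Pigv encodes a mannosyltransferase in the assembly of GPI anchors. The table reports transcripts of these proteins, not the anchored proteins.

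On GRCm38, Lsamp lies on chromosome 16 (39984361 to 42181679, plus strand), Negr1 on chromosome 3 (156561794 to 157316445, plus strand) and Iglon5 on chromosome 7 (43472904 to 43490075, minus strand). Opcml (27790775 to 28925410, plus strand) and Ntm (28994750 to 29963141, minus strand) are neighbours on chromosome 9. Their 3′ ends face each other across 69.3 kb, with 0 annotated genes between. Lsamp spans 2197 kb, Opcml 1135 kb, Ntm 968 kb and Negr1 755 kb, lengths that only 0.0228% to 0.487% of protein-coding genes exceed, whereas Iglon5 spans 17.2 kb. Annotated exons cover 0.783% of Lsamp, 1.28% of Opcml, 0.834% of Ntm, 1.39% of Negr1 and 15.3% of Iglon5. Whether reads from introns were counted is not given in the sources used here. Genes annotated on the opposite strand within the 4 long genes and present in the table reached at most 0.0510 per 10000 over all cells, against 11.3 or more for the long members themselves.

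The 250 bases before the RefSeq start (GRCm38.p6) are shown for Negr1 and Ntm, whose levels separate the hippocampal fields described below, and for Opcml, the neighbour of Ntm. Negr1 is read from chr3:156561544-156561793 on the plus strand, Opcml from chr9:27791049-27791298 on the plus strand, and the Ntm starts from chr9:29413453-29413702 and chr9:29412686-29412935 on the minus strand. Capitals mark CG, the dinucleotide that can be methylated, which reads the same on both strands.
Negr1: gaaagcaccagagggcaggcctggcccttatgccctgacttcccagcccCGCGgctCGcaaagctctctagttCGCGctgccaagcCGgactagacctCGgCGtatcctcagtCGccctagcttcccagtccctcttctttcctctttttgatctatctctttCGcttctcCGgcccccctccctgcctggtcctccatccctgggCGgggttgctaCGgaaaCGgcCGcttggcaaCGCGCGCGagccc
Opcml: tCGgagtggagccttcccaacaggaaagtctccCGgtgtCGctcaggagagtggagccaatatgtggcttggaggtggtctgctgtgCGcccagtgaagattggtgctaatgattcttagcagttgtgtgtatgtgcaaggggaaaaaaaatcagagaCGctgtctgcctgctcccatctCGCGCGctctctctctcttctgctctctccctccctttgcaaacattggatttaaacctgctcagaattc
Ntm, upstream start: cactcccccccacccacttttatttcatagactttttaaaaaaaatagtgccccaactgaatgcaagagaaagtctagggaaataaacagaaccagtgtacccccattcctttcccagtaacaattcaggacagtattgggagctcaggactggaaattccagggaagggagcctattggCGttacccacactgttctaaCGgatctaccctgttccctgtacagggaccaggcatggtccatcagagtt
Ntm, downstream start: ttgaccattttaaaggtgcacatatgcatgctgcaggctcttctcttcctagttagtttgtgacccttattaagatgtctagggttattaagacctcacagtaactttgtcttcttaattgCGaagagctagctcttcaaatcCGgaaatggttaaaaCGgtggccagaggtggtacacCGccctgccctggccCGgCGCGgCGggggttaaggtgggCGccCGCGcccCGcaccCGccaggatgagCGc
The Negr1 window holds 19 CG, the Opcml window 8, the upstream Ntm window 2 and the downstream Ntm window 14. Of 32851 promoter windows of this length, 92.1% hold at least 1 CG and the median is 6. As many as in Negr1 occur in 19.7% of them, as in Opcml in 43.0%, and as in the Ntm starts in 81.2% and 29.4%. The Ntm starts are 767 bases apart and lie 549.7 kb inside the gene as GENCODE annotates it, and Lsamp has starts 1548 kb apart. The deposited values are per gene, so the use of one start or another was not measured, and the windows are a description of the sequence alone.

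The values are whole-number, depth-corrected scores rather than raw counts. A level is a gene's summed value in a cell type per 10000 of the summed values of all genes there. Within a gene, levels can be compared among types. Between genes they are not compared, because the values are scores and whether reads from introns were counted is not given. Cells were clustered without the 5 members among the clustering genes, and clusters were named from marker genes. Each name below means cells that resemble that type by markers. The 15 types with at least 50 cells in each library are 9 neuronal and 6 non-neuronal ones. CA1-like pyramidal neurons number 722 in wild-type and 717 in knock-in cells, CA3-like ones 298 and 342, dentate granule neurons 1453 and 1448, and astrocytes 594 and 815. The hippocampal label was met by these CA1-like, CA3-like and granule cells, and cortex-like pyramidal neurons and choroid plexus epithelium came with them. Cortex-like neurons rest on few markers, 3 of 10 pyramidal markers in cluster 7 and 5 of 10 in cluster 21. Clusters left unnamed hold 15.5% of wild-type and 14.5% of knock-in cells. In all, 28 cell barcodes occur in both libraries. Pigv itself had a level of 0.0886 in the wild-type library and of 0.1004 in the other, and a level per gene cannot show the allele.

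Ntm spanned 70.6-fold between its highest and lowest type in the wild-type library and 98.0-fold in the knock-in library. The corresponding spans were 20.2 and 15.7 for Lsamp, 15.7 and 14.1 for Iglon5, 12.7 and 11.7 for Opcml, and 9.79 and 7.62 for Negr1. The lowest Ntm levels were 0.887 in wild-type granule neurons and 0.602 in knock-in CA3-like neurons. These are low values, and the CA3-like level changed with the clustering, as described below. For Iglon5 the lowest levels were 0.0239 and 0.0252. Spans over such low values are not exact. Over the 15 types, the levels of each member in the wild-type library followed those in the knock-in library with Pearson r from 0.937 for Iglon5 to 0.992 for Ntm. Both libraries share the clustering that made the types, and the r is given as a description. The median over neuronal types exceeded the median over non-neuronal types by 1.37 on the log2 scale for Lsamp, 1.52 for Negr1, 1.82 for Opcml, 2.00 for Ntm and 1.33 for Iglon5. These medians hide that astrocytes or oligodendrocyte precursors were the highest type for 3 of the 5 members.

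**Figure D1:**
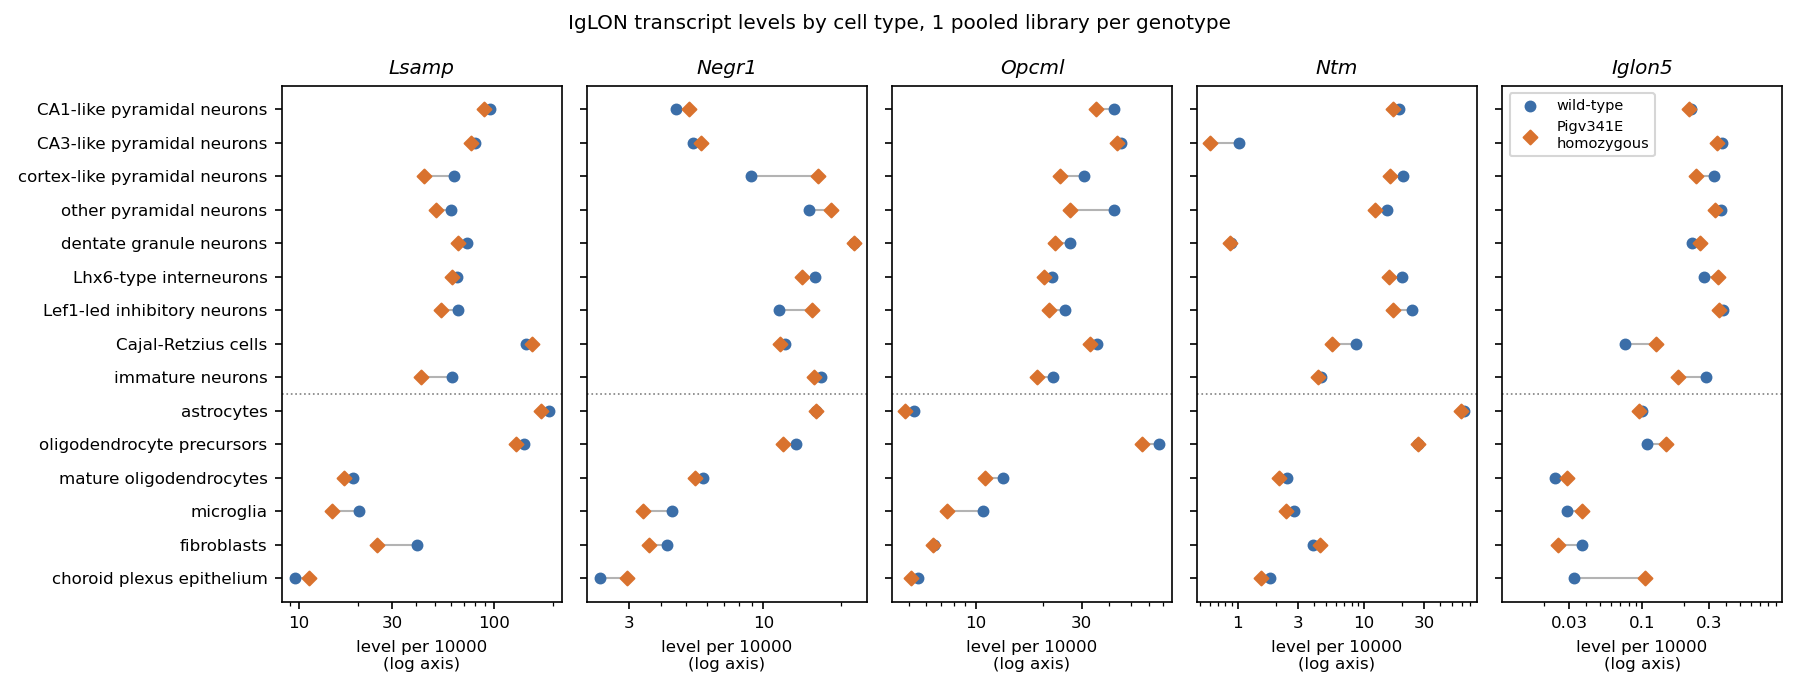
Level per 10000 (log axis, a separate range for each gene) of the 5 IgLON genes in 15 cell types. Circles are the wild-type library and diamonds the Pigv341E homozygous library, 1 each, and the dotted line divides neuronal from non-neuronal types. Ntm lies near 1 in CA3-like and dentate granule neurons and between 12.3 and 24.2 in the other pyramidal and inhibitory neurons.

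Lsamp had a value of 2 or more in 98.2% of wild-type and 97.7% of knock-in cells. Its level was highest in astrocytes, 192 per 10000 for wild-type and 175 for knock-in cells, the order in which paired values are given from here on. Cajal-Retzius cells, the reelin-secreting neurons of the outer layer, followed at 146 and 156, and oligodendrocyte precursors at 143 and 130. These ranges do not overlap, and the order of the first 6 types was the same in both libraries. CA1-like neurons had 95.4 and 88.9, CA3-like neurons 80.0 and 75.8, and dentate granule neurons 72.8 and 65.3, so CA1-like cells were above CA3-like and these above granule cells in each library. Lhx6-type interneurons, Lef1-led inhibitory neurons, cortex-like, other pyramidal and immature neurons lay between 42.3 and 65.5 and overlapped with their neighbours in the order. Mature oligodendrocytes had 19.0 and 17.1, microglia 20.3 and 14.7, and choroid plexus epithelium 9.49 and 11.2.

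Among astrocytes the Lsamp level split by cluster. Cluster 17, led by Rgs20 and the glutamate transporter gene Slc1a2, had 208 in wild-type and 191 in knock-in cells. Cluster 27, led by Myoc and Gfap, the gene of the astrocyte intermediate filament, had 73.1 and 66.4. The first was 2.84 and 2.88 times the second. Ntm, by contrast, was 63.8 and 60.3 in cluster 17 and 54.8 and 51.3 in cluster 27, a fold of 1.16 and 1.18. The members that astrocytes carry at their highest levels thus did not follow each other between astrocyte clusters. Summed astrocyte markers were 122 and 137 in cluster 17 and 102 and 107 in cluster 27, and both clusters counted 10 of 10 astrocyte markers. Median detected genes were 2527 and 2708 in the first and 2629 and 2735 in the second.

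Among the principal neurons Negr1 was highest in granule cells. Dentate granule neurons had the highest level, 22.5 and 22.4 per 10000. CA1-like neurons had 4.56 and 5.13, and CA3-like neurons 5.30 and 5.69. The granule level was 4.94 and 4.37 times that of CA1-like neurons. The CA types lay beside mature oligodendrocytes, which had 5.81 and 5.41, and they were the lowest of all 9 neuronal types in both libraries. The other neuronal types ranged from 8.95 to 18.3. Astrocytes had 15.99 and 15.96, and oligodendrocyte precursors 13.4 and 11.9. Below granule cells, the types from other pyramidal neurons down to Cajal-Retzius cells overlapped with their neighbours in the order, except between astrocytes and Lhx6-type interneurons, and their order differed between the libraries.

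Opcml was highest in oligodendrocyte precursors, at 66.9 and 56.3 per 10000. CA3-like neurons came next with 45.2 and 43.4, and CA1-like neurons with 41.7 and 34.8. Other pyramidal neurons had 41.9 and 26.5 and Cajal-Retzius cells 35.3 and 32.8, and these overlapped with CA1-like neurons or with each other. Dentate granule neurons had 26.6 and 22.9. Astrocytes were the lowest of the 15 types in both libraries, at 5.26 and 4.80, next to choroid plexus epithelium at 5.49 and 5.14. Lsamp and Ntm were at their highest in the cell type where Opcml was at its lowest.

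Ntm separated the hippocampal fields. Astrocytes had the highest level, 62.6 and 59.0 per 10000, and oligodendrocyte precursors followed at 27.1 and 26.98. Lef1-led inhibitory neurons had 24.2 and 17.1, cortex-like neurons 20.3 and 16.3, Lhx6-type interneurons 19.95 and 15.9, and CA1-like neurons 18.9 and 16.98. Each of these inhibitory, cortex-like and CA1-like types overlapped with its neighbours in that order. CA3-like neurons had 1.03 and 0.602, and dentate granule neurons 0.887 and 0.868. They were the lowest of all 15 types in both libraries, below microglia at 2.82 and 2.44. The CA1-like level was 18.3 and 28.2 times the CA3-like level. This fold depends on the clustering: with 15 principal components the mean CA3-like level of both libraries was 2.04 in place of 0.816, above choroid plexus epithelium at 1.63, and the fold of the mean levels was 8.81 in place of 21.98.

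Single cells showed the same division. A value of 2 or more for Ntm was found in 97.5% of CA1-like cells of the wild-type library (exact Clopper-Pearson 95% interval 96.1 to 98.5%) and 96.8% of the knock-in cells (95.2 to 97.96%). In CA3-like cells the shares were 22.5% (17.9 to 27.7%) and 9.94% (6.98 to 13.6%), and in granule cells 14.2% (12.4 to 16.1%) and 13.2% (11.5 to 15.04%). These intervals cover counting error only. The median CA3-like cell and the median granule cell were at 0. With every cell thinned to 1000 in total, Ntm was above 0 in 8.05% and 8.19% of CA3-like cells and in 7.02% and 5.80% of granule cells. Choroid plexus epithelium, set beside them as another type with a low Ntm level, had 14.7% and 10.99%. Whether this epithelium expresses Ntm was not tested. Its median cell had 2816 and 2959 detected genes, against 4077 and 4234 in CA3-like cells and 3915 and 4197 in granule cells. The CA3-like and granule shares were at or below it, and no expression is read from them. Cluster 36, a mature oligodendrocyte cluster of 12 and 18 cells with 4087 and 4451 median detected genes, had a lower Ntm level still, 0.0794 and 0.157, and the source of the low CA3-like and granule values was not tested. CA1-like cells, at 77.98% and 74.5% after thinning, stood far above it.

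**Figure D2:**
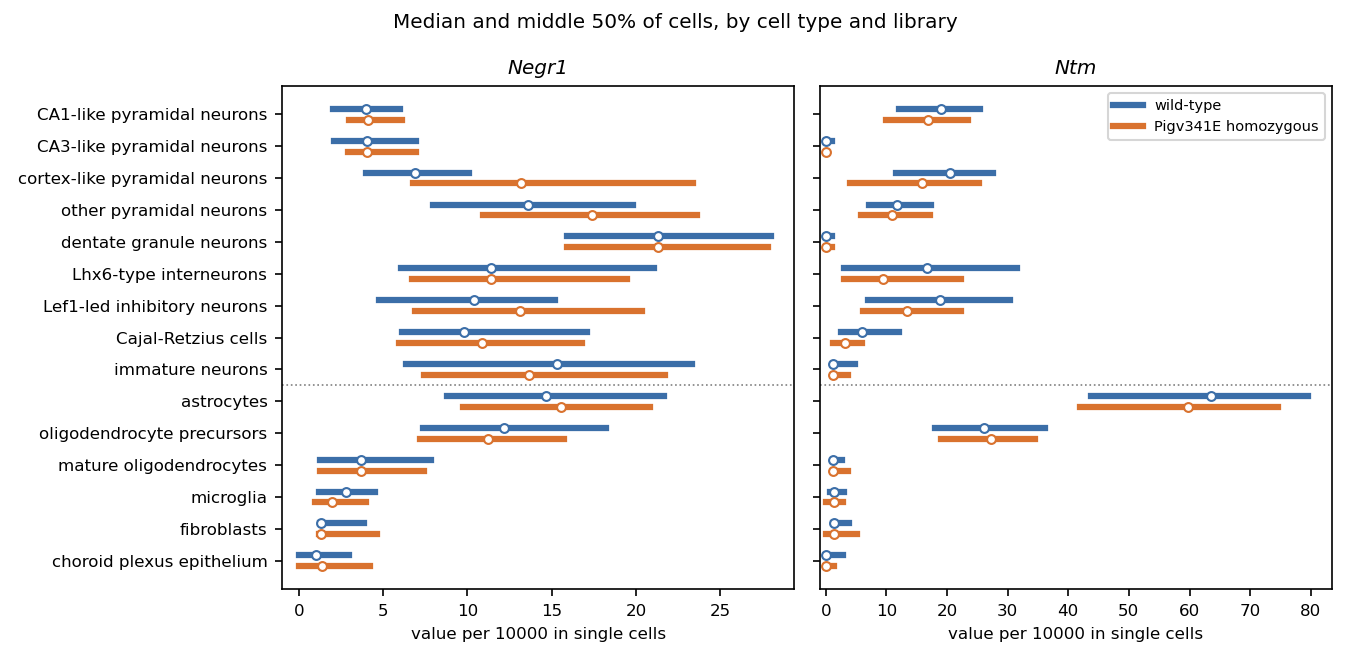
Value per 10000 in single cells for Negr1 and Ntm in 15 cell types. The open point is the median cell and the bar the middle 50% of cells, for the wild-type and the Pigv341E homozygous library. CA1-like and dentate granule neurons exchange places between the panels, with a median of 0 for Ntm in granule and CA3-like cells.

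A small granule cluster departed from this. Cluster 16 (52 wild-type, 63 knock-in cells) had Ntm at 7.66 and 5.84 per 10000, which is 12.04 and 9.28 times cluster 10, the main granule cluster. Its Negr1 level was 12.4 and 12.7, against 23.1 and 23.5 in cluster 10. Its cells were spread widely: the median Ntm value was 0.986 and 0.993, the lower quartile 0 and the upper quartile 17.8 and 10.7, so the mean was raised by its high cells. The leading genes of cluster 16 include 4921539H07Rik and Gm10754, which also lead the CA1-like cluster, and 15.4% and 14.3% of its cells were called doublets, against 0% and 0.257% in cluster 10. The part of mixed cells in this result was not tested.

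Iglon5 was found at low values. Its level was at most 0.376 per 10000 in any type, under the limit of 1 used for comparing the libraries. Lef1-led inhibitory neurons had 0.376 and 0.355, CA3-like neurons 0.372 and 0.341, and other pyramidal neurons 0.365 and 0.332. CA1-like neurons had 0.224 and 0.217 and dentate granule neurons 0.227 and 0.261. From Lef1-led inhibitory neurons down to CA1-like neurons, each neuronal type overlapped with its neighbour, so the order among them is not resolved. CA1-like neurons did not overlap with the next type, oligodendrocyte precursors, at 0.109 and 0.148. The remaining neuronal type, Cajal-Retzius cells, ranked below these precursors at 0.0750 and 0.126 and overlapped with them. Mature oligodendrocytes had 0.0239 and 0.0289. Values above 0 occurred in 33.9% and 29.8% of CA3-like cells, but values of 2 or more in only 2.68% (1.17 to 5.22%) and 3.80% (2.04 to 6.41%).

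**Figure D3:**
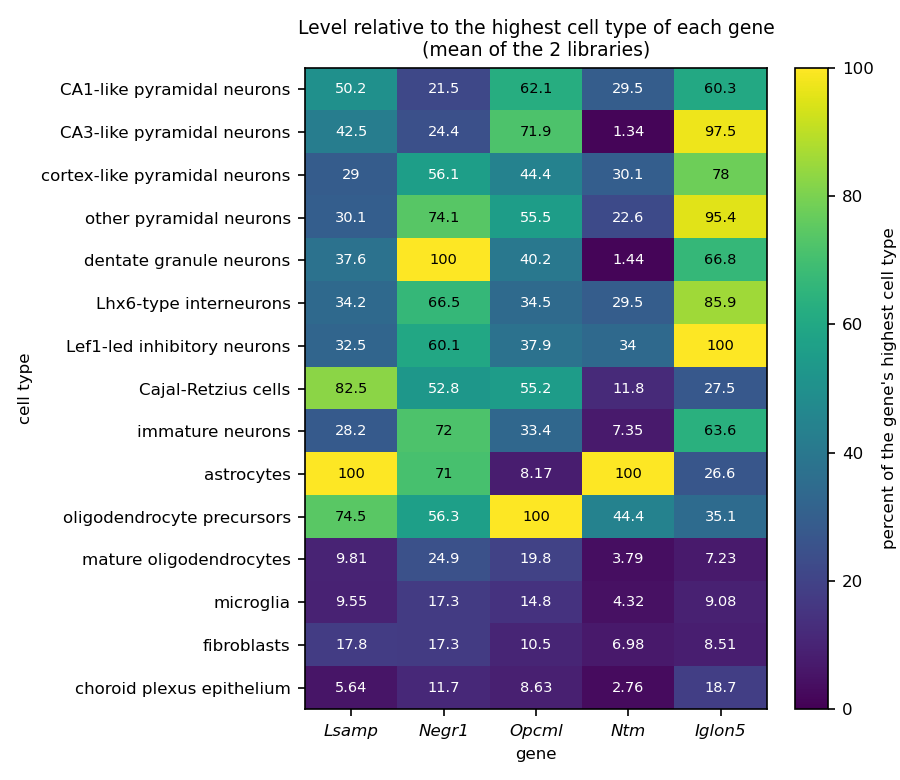
Each gene's level as a percent of its own highest cell type, mean of both libraries. The rows are 15 cell types, the columns the 5 IgLON genes, and each gene is scaled on its own. Astrocytes stand at 100% for Lsamp and Ntm and at 8.17% for Opcml, and dentate granule neurons at 100% for Negr1 and 1.44% for Ntm.

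All members were lower in mature oligodendrocytes than in their precursors, and the size of the step depended on the gene. The precursor level was 10.99 and 12.6 times the mature level for Ntm, 7.57 and 7.62 for Lsamp, 5.04 and 5.08 for Opcml, 4.56 and 5.11 for Iglon5, and 2.31 and 2.20 for Negr1. The Iglon5 folds rest on levels of 0.109 and 0.148 over 0.0239 and 0.0289, under the limit of 1, and are not exact. Cluster 9, which carried all 10 mature markers but stayed unnamed because Enpp6, a gene of newly formed oligodendrocytes, was among its leading genes, had Lsamp at 13.6 and 12.1 and Ntm at 1.92 and 1.76. It lay with the mature cells, not between them and the precursors.

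Most cells carried several members at once. In oligodendrocyte precursors, 96.2% of wild-type and 96.7% of knock-in cells had values of 2 or more for all of Lsamp, Negr1, Opcml and Ntm. The shares were 86.1% and 89.4% in CA1-like neurons, 96.2% and 93.4% in other pyramidal neurons, and 73.9% and 74.5% in Lhx6-type interneurons. They were 20.5% and 9.94% in CA3-like neurons and 13.9% and 12.8% in granule neurons, close to the shares for Ntm alone. In microglia 40.8% and 23.0% of cells passed for all 4 genes, so such a share on its own does not show expression in low types.

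Over 32 clusters of at least 50 cells, the profiles of Lsamp and Negr1 were the most alike within the family, with Pearson r of 0.753 on log2 levels. Opcml and Iglon5 followed with 0.732. The chromosomal neighbours Opcml and Ntm had the lowest r of the 10 pairs, 0.240. Of 6100 genes with a level of at least 1 in some cluster, Plcb1 (r 0.893), Astn1 (0.884) and Adgrl3 (0.868) were most like Lsamp. Map2 (0.859), Tnik (0.849) and Astn1 (0.834) were most like Negr1, and Unc79 (0.927), Nrg3 (0.926) and Fam155a (0.923) most like Opcml. Ppp2r2b (0.829), Tenm3 (0.801) and Meis2 (0.792) were most like Ntm, and Fam169a (0.937), Tmem63c (0.929) and Atcay (0.911) most like Iglon5. The clusters share 2 libraries and 1 clustering, and the correlations are descriptions.

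The libraries were then compared to ask whether the transcripts of these GPI-anchored proteins differ in mice with the Pigv341E allele. GPI anchors themselves were not measured. The rule for a difference was an absolute log2 ratio of at least 1, with a level of at least 1 per 10000 and 10% of cells above 0 in 1 of the libraries. Over the 15 types, 59 of 75 pairs of a member and a type were within these limits, and 0 of the 59 were past the rule. Of all pairs of a gene and a type within the limits, 1.19% were past it. By type this share ran from 0.301% in dentate granule neurons to 3.74% in cortex-like neurons, and over all cells it was 0.289%. Iglon5 was within the limits in 0 types.

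**Figure D4:**
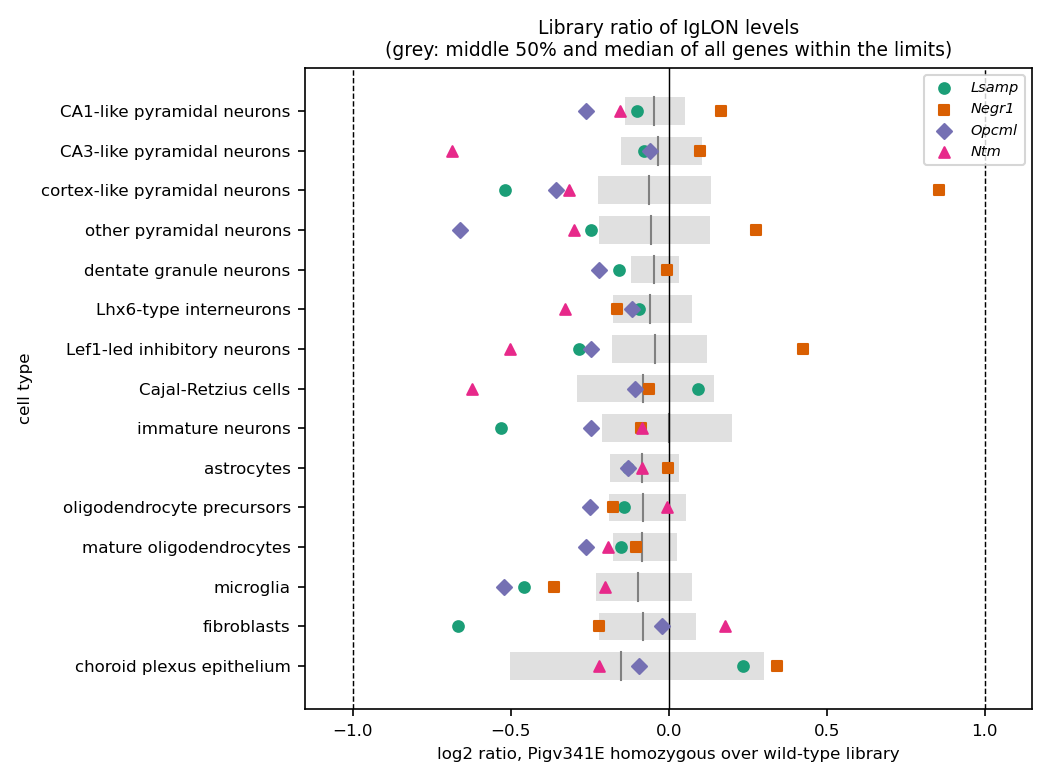
Log2 ratio of the Pigv341E homozygous over the wild-type library for the 4 IgLON genes within the level limits, by cell type. Grey bars and lines give the middle 50% and the median of all genes within the limits, and dashed lines the size rule of 1. No point passes a dashed line, and the Opcml points are all left of 0.

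Over all cells, Lsamp was at 68.9 and 61.8 per 10000, and Opcml at 26.1 and 22.1. Negr1 was at 11.3 and 11.7, Ntm at 11.7 and 11.9, and Iglon5 at 0.164 and 0.178. These levels mix types whose shares differed between the libraries. Astrocytes were 8.37% and 9.22% of the cells, and granule neurons 20.5% and 16.4%. The part of such shares in the all-cells levels was not tested. Opcml was lower in the knock-in library in 15 of 15 types, with a median log2 ratio of -0.24 and a range from -0.66 to -0.02. After the median of all genes in a type was subtracted, it was lower in 13 of 15. Lsamp was lower in 13 of 15 types (median -0.15), Ntm in 13 of the 14 within the limits (median -0.21), and Negr1 in 9 of 15 (median -0.0066). After the same subtraction Lsamp was lower in 13 and Ntm in 12 types, while Negr1 was lower in 6 of 15 and its median became 0.041. Of all gene and type pairs, 61.5% were below 0. The share was 49.8% in immature neurons and 70.7% in mature oligodendrocytes, the extremes among the types. The types come from the same 2 libraries and are not replicates.

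At a smaller size of 0.5 on the log2 scale, 9 of the 59 pairs were past it, 8 lower and 1 higher, beside 8.41% of all gene and type pairs past it and 4.68% past it and lower. Negr1 was higher in cortex-like neurons, 8.95 against 16.3 per 10000, a log2 ratio of 0.86, in a type where 15.4% of genes were past 0.5. Lsamp was lower in the same cells, 62.6 against 43.7 (log2 ratio -0.52), in fibroblasts, 40.1 against 25.2 (-0.67, 6.83% of genes past 0.5), and in immature neurons, 61.2 against 42.3 (-0.53, 11.8%). Opcml was lower in other pyramidal neurons, 41.9 against 26.5 (-0.66, 9.8%), and in microglia, 10.8 against 7.47 (-0.52, 2.19%). Ntm was lower in CA3-like neurons, 1.03 against 0.602 (-0.69, 4.43%), in Cajal-Retzius cells, 8.70 against 5.62 (-0.62, 14.7%), and in Lef1-led inhibitory neurons, 24.2 against 17.1 (-0.50, 7.43%). The CA3-like pair rests on the low values described above. After thinning, Ntm was above 0 in 8.05% and 8.19% of these cells, shares from which no expression was read.

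The cortex-like values moved with cluster makeup. Cluster 7, led by Unc5d and Fhod3, held 124 wild-type and 457 knock-in cells, and cluster 21 held 109 and 82. Negr1 was 11.7 and 18.1 in cluster 7 and 5.86 and 6.07 in cluster 21, so the log2 ratio was 0.63 in the first and 0.05 in the second. With each cluster given the same share of cells in both libraries, its share in the pooled cells, it was 0.56. Marker sums of other cell types moved both ways in the knock-in cortex-like cells, beside 25.9 and 28.0 for pyramidal markers. Dentate granule markers had 4.68 and 7.56, interneuron markers 1.74 and 2.96 and oligodendrocyte precursor markers 3.75 and 6.28. Astrocyte markers had 6.29 and 4.94, mature oligodendrocyte markers 2.90 and 1.98 and newly formed oligodendrocyte markers 2.27 and 1.79. By cluster, the granule sum was 7.14 and 8.35 in cluster 7 and 1.92 and 3.15 in cluster 21. The part of these transcripts in the Negr1 difference was not tested. Lsamp was 59.2 and 38.9 in cluster 7 and 66.4 and 70.5 in cluster 21. For Negr1 and Lsamp the library difference in these cells lay in cluster 7, and for Lsamp it had the opposite sign in cluster 21. Opcml was lower in both clusters, with log2 ratios of -0.315 in cluster 7 and -0.345 in cluster 21.

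Levels within microglia also differed by cluster. Cluster 29, led by P2ry12 and Cx3cr1, genes of resting microglia, had Lsamp at 7.35 and 9.67 and Opcml at 2.81 and 4.13. Cluster 3, led by Cst3 and Tyrobp, had Lsamp at 41.3 and 29.1 and Opcml at 24.3 and 15.7. The 10 pyramidal neuron markers summed to 15.7 and 14.8 in cluster 3 and to 3.01 and 4.12 in cluster 29, beside 30.8 and 32.2 in CA1-like neurons. The pyramidal markers stood high where the IgLON genes did, but the dentate granule markers did not. The granule markers summed to 12.01 and 10.4 in cluster 3 and to 12.8 and 11.6 in cluster 29. In cluster 14, another microglia cluster, the granule sum was higher, 20.04 and 18.2, and the pyramidal sum was 10.5 and 9.34. Lsamp there was 22.8 and 17.8, between its levels in clusters 29 and 3. The part of neuronal RNA in microglial levels was not tested. Cluster 3 held 167 of 664 wild-type and 115 of 860 knock-in microglia, and with each cluster at its pooled share in both libraries the Opcml ratio was -0.28 in place of -0.52. Within cluster 29 all 4 long members had higher knock-in values, with log2 ratios from 0.23 for Negr1 to 0.95 for Ntm, and called doublets were 2.73% and 10.7% there. The median cell did not show this: Lsamp was 4.73 and 3.79 in it, Opcml 2.27 and 2.09, Negr1 1.03 and 0.983, and Ntm 0 in both.

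**Figure D5:**
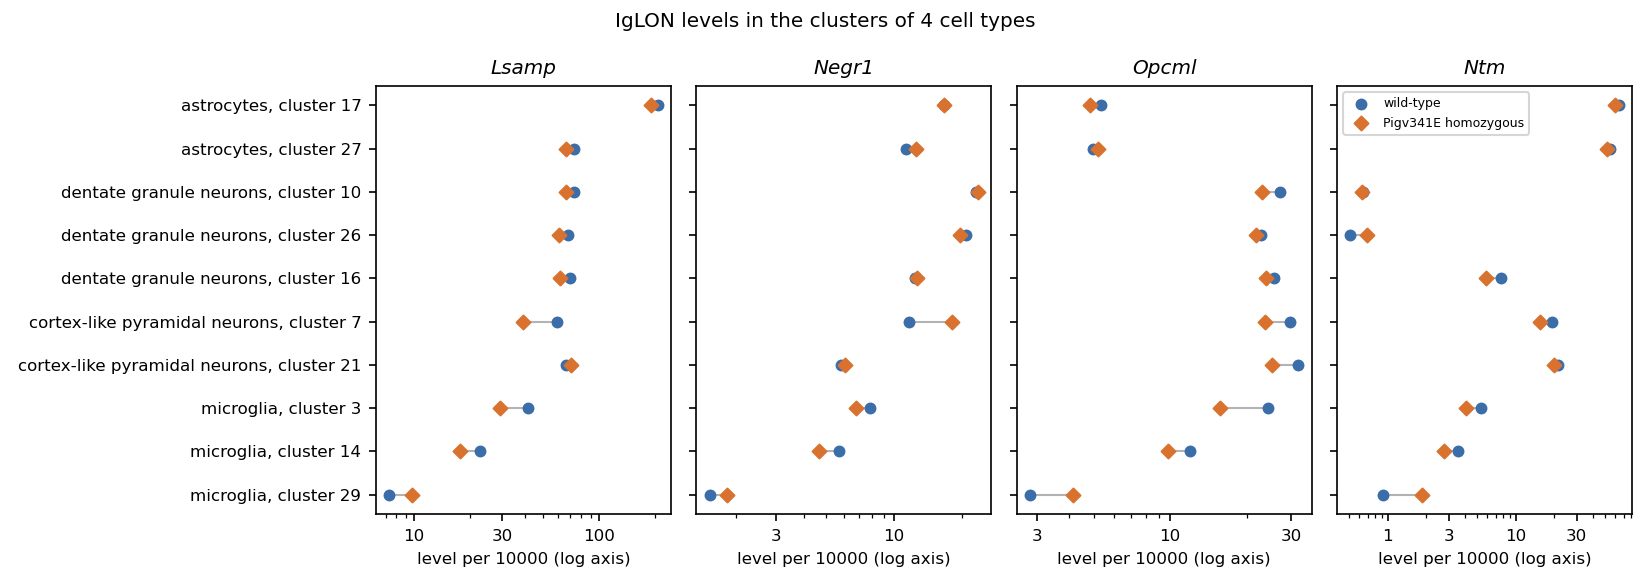
Level per 10000 (log axis) of the 4 long IgLON genes in 10 clusters of astrocytes, dentate granule neurons, cortex-like neurons and microglia. Circles are the wild-type and diamonds the Pigv341E homozygous library. Lsamp is lower in astrocyte cluster 27 than in cluster 17 while Ntm is not far apart, and Ntm is higher in granule cluster 16 than in clusters 10 and 26.

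Other measures moved with the libraries in nearly all types. Median detected genes, the mitochondrially encoded share and Ttr, a choroid plexus transcript, were higher in the knock-in library in 15 of 15 types, Malat1 and summed ribosomal protein genes in 14 of 15, and the share of called doublets in 13 of 15, with 0 lower. Their part in the IgLON ratios was not tested.

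The rest of the GPI pathway was described by the same rule. Of 46 other GPI-anchored proteins in the table, 15 were within the limits over all cells. Of these, 0 were past the rule, 11 above and 4 below 0, beside 72.8% of all genes below 0. Their median log2 ratio was 0.13, beside -0.076 for all genes. The all-cells values mix types whose shares differed between the libraries. Within types the median of this list ran from -0.12 in CA3-like neurons to 0.27 in choroid plexus epithelium. It was 0.019 in CA1-like and -0.0024 in granule neurons. Over all cells again, the 4 IgLON genes within the limits had a median of -0.064. Among 26 genes of GPI anchor synthesis and transfer, 1 was within the limits. Of 22 transmembrane adhesion proteins of the immunoglobulin superfamily, 13 were within the limits, 0 past the rule, and the median was -0.097. In cortex-like neurons, where Negr1 was higher, 2 of 13 listed GPI-anchored genes within the limits were past the rule. They were the ephrin gene Efna5 (4.16 and 8.79 per 10000) and the GPI-anchored cadherin gene Cdh13 (2.23 and 6.87). So were 3 of 14 transmembrane adhesion genes, Sdk1, Nectin3 and Kirrel3, beside 3.74% of all genes there. Efna5 is a leading gene of cluster 7, which held 124 of 233 wild-type and 457 of 539 knock-in cells of this type. The part of cluster makeup in these differences was not tested. In other pyramidal neurons, where Opcml was lower, the glypican gene Gpc6 was past the rule at 4.49 and 1.47. It was 1 of 11 GPI-anchored genes, beside 1.43% of all genes. In Cajal-Retzius cells 2 of 13 were past it, the glypican gene Gpc5 at 2.19 and 0.731 and the netrin-G gene Ntng1 at 0.450 and 1.05, beside 1.64% of all genes. In immature neurons 1 of 13 transmembrane genes was past it, Sdk2, beside 0.956% of all genes. In choroid plexus epithelium 3 of 10 GPI-anchored genes were past it, Cntn4, Cntn5 and Ntng1, all with higher knock-in values, beside 3.73% of all genes.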

How the data were processed

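The authors deposited a table of whole-number values per gene and cell, treated here as a score. Per the submitters' processing notes, Seurat 3.0.0 and GRCm38 were used. The aligner, cell filter and any doublet removal are not given in the sources used here. Values per cell sum to 4846 to 14501, a band narrower than raw counts give, so the depth per cell is unknown, a value of 1 need not be a molecule, and no count model was used. The precision of shares is given by exact Clopper-Pearson 95% intervals, for counting error only.

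All cells were kept and clustered with scanpy 1.11.5 under Python 3.11.15 (2000 variable genes without the members and sex-linked genes, 30 principal components, 15 neighbours, Leiden resolution 1), giving 37 clusters, 9 of them unnamed. A marker counted for a cluster at 25% of cells above 0 and 1.5-fold the level of other cells. The class with most markers, at least 3, gave the name. Clusters stayed unnamed if mitochondrial transcripts made up 3 of the 10 leading genes, if another class led more or reached 60% of its markers, or if none led and under 40% or fewer than 4 counted. This rule was set after the clusters were seen. Scrublet, with an expected rate of 6%, called 0.860% of wild-type and 2.37% of knock-in cells, which were kept.

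Log2 ratios set knock-in against wild-type levels after a pseudocount of 0.1, so changes of low genes are understated. Named genes are the members, Pigv, the 3 genes most correlated with each member, and list genes past the size rule; cluster-leading genes and smaller differences were chosen after their values were seen. Members and lists were chosen with earlier results of these data known. Positions are from GENCODE M21 and promoter windows from RefSeq, where all 5 members matched. The ratio code was tested on simulated data. Alternatives varied the clustering, the cells kept, values of 1, the weights of clusters (their pooled share in both libraries), the pseudocount, centring, the limits and the size.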

Additional observations from a re-analysis of the deposited data

How the results depend on the processing

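No paired analysis was possible because each genotype is 1 library. No replicate could be left out. The count of member-type pairs past a log2 ratio of 1 was 0 under all 13 alternatives that kept this size, and 9 at a size of 0.5. The median log2 ratio over types stayed below 0 for Lsamp, Opcml and Ntm under every alternative run. The neuron over non-neuron log2 level was above 0 for all 5 members throughout. For Ntm it was 2.00 and became 1.54 at Leiden resolution 2, 1.61 with 15 principal components and 2.35 with values of 1 set to 0. For Opcml it was 1.82 and became 2.12 with 15 principal components, 1.93 without called doublets, 2.02 with values of 1 set to 0 and 1.70 with a pseudocount of 1. For Iglon5 it was 1.33 and became 0.64 with values of 1 set to 0, 0.28 with a pseudocount of 1 and 2.33 with a pseudocount of 0.01. The causes were not tested. Other pyramidal neurons were not among the types compared at resolution 2 or with 15 principal components. At resolution 2 the name went to 22 wild-type and 26 knock-in cells, under the limit of 50. The cells so named in the main clustering had a counterpart there, named cortex-like. It held the same 105 and 227 cells, with Opcml at 41.9 and 26.5. Of 815 recomputed log2 ratios of single pairs, 35 changed sign. Among the 9 pairs past 0.5, 1 did: Ntm in CA3-like neurons was -0.69 and became 0.45 with 15 principal components, where the level rose from 0.816 to 2.04. Negr1 in cortex-like neurons ranged from 0.54 to 0.92, Lsamp there from -0.52 to -0.18, and Opcml in microglia from -0.70 to -0.28. The cortex-like ranges do not follow the same cells throughout. At resolution 2 the cortex-like type included the cells named other pyramidal neurons in the main clustering. The cluster led by Unc5d was unnamed there. The depth of the cells is unknown, so low levels such as those of Iglon5 are limited by it to an extent that was not measured.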

Other observations

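Among the clusters without a name, cluster 35, led by Vwc2l, Cntn6 and Tshz2, had Opcml at 66.2 and 49.4 per 10000 (wild-type first), beside 66.9 and 56.3 in oligodendrocyte precursors. Its Lsamp level, 25.8 and 30.9, was below that of each named neuronal type, and its Ntm level was 3.42 and 4.56. Cluster 2, led by Pde11a and Dcn, had Opcml at 51.96 and 45.3 with Lsamp at 59.9 and 53.1 and Ntm at 15.5 and 14.4. Cluster 12, whose leading genes include the extracellular matrix gene Fn1, had Opcml at 45.2 and 37.9 and Ntm at 10.7 and 9.003.

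Vascular cells were too few for the comparison of libraries. In 27 wild-type and 49 knock-in pericytes or smooth muscle cells, Lsamp was at 40.1 and 43.0 per 10000. In 25 and 43 endothelial cells it was at 22.1 and 27.2. Cluster 4, which has the macrophage genes Mrc1 and F13a1 among its leading genes but also counts 9 of 10 mature oligodendrocyte markers, had 14.03 and 13.2.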
